A study of Mus musculus with 5 samples.

Results

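The 4 azurophil granule genes Mpo, Elane, Prtn3 and Ctsg were followed through mouse bone marrow during the growth of a transplanted B-cell acute lymphoblastic leukemia. They were chosen by name as products of the azurophil, or primary, granule, and all 4 were found among the 28692 genes in the deposited count files. Mpo encodes a peroxidase and the other 3 encode serine proteases, so the group is named here by its granule. In the study, 5 C57BL/6J mice, 8 weeks old and not irradiated, each received 1000 BCR-ABL1+ pre-B leukemia cells through the tail vein. One mouse was killed at once (day 0) and 1 each on day 3, day 6, day 9 and day 12. Marrow flushed from femurs and tibias was pooled with cells freed from the crushed bones by collagenase and DNase, red cells were lysed, and cells were frozen before 10x Genomics 3′ v2 single-cell RNA sequencing. Day 0 serves as the start of the series and had received the leukemia cells too, so no mouse without transplant was measured.

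Azurophil granules are the first granules that a developing neutrophil makes, at the promyelocyte stage. Myeloperoxidase turns hydrogen peroxide and chloride into a microbe-killing acid, and neutrophil elastase, myeloblastin (the product of Prtn3) and cathepsin G cut proteins of microbes and of tissue. The mature neutrophil keeps these proteins in its granules after it has stopped making their transcripts, and the genes are known as marks of granulocyte-monocyte progenitors and promyelocytes.

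The promoters of the 4 genes are shown because the genes moved together across cell classes in the values that follow. They come from the RefSeq promoter table for GRCm38.p6, the same assembly as the mm10 build named by the submitters, and all 4 genes matched by symbol. Each was searched on both strands over the 250 bases before the RefSeq start for 6 short motifs. Printed is the 5′ part of that window, ending at most 30 bases past the first protein-coding start in GENCODE, so the run for Mpo, whose annotated start lies near the beginning of the window, is short. Capitals mark every motif match inside the printed bases.
Mpo, chr11:87793534-87793610, plus strand: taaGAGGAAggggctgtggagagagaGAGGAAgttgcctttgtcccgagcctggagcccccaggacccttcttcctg
Elane, chr10:79886062-79886276, plus strand: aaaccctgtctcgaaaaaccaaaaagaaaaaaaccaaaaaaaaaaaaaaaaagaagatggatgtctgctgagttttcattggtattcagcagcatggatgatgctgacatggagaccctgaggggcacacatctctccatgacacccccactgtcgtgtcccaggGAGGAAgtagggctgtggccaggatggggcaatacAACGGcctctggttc
Prtn3, chr10:79879417-79879643, plus strand: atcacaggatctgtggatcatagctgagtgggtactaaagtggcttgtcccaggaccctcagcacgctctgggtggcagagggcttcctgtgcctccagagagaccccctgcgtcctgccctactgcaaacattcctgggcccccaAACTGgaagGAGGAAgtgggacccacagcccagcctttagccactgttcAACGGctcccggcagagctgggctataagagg
Ctsg, chr14:56102575-56102824, minus strand: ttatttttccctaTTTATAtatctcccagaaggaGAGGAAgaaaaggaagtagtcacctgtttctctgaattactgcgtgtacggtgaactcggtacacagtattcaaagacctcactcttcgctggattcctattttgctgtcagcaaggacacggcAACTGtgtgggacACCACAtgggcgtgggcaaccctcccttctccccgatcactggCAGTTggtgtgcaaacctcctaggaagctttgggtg

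The letters GAGGAA, a core of PU.1 sites, occurred in the promoters of all 4 genes, with 2 matches in Mpo, and in 23.3% of the 32851 promoters of the table. AACGG, one form of the MYB core, was found in Elane and Prtn3 and in 14.5% of all promoters. The other form, AACTG, was found in Mpo (outside the printed bases), Prtn3 and Ctsg, against 39.1% of all promoters. Positions were counted from the RefSeq start. The Elane AACGG and the Mpo AACTG lie past the first GENCODE start in the window, and the Prtn3 AACGG spans it. Ctsg also held TATAAA, the TATA box letters, and TGTGGT, a RUNX core, which occurred in 12.4% and 14.0% of promoters. This TATAAA lies on the strand opposite to the gene, 237 bases before the start. TTNCNNAA, taken for C/EBP factors, was in none of the 4 windows and in 36.8% of all. None of the 6 motifs contains another, and a match of letters does not show that a factor binds.

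The annotation (GENCODE, GRCm38) places the genes at 3 loci. Mpo (ENSMUSG00000009350) lies at chr11:87793581-87804413 on the plus strand with 14 exons, 2014 bases from Lpo, another peroxidase gene. Prtn3 (ENSMUSG00000057729, chr10:79874476-79883174) and Elane (ENSMUSG00000020125, chr10:79886247-79888215) follow each other on the plus strand with a gap of 3072 bases, and the annotated span of Prtn3, which begins before the printed promoter, overlaps Plppr3. Cfd starts 2637 bases past Elane. Prss57, which encodes a further azurophil serine protease, lies 83514 bases before Prtn3. Ctsg (ENSMUSG00000040314, chr14:56099881-56102574, minus strand) lies between Mcpt8 and Gzme, in a row of mast cell protease and granzyme genes.

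The 5 libraries held 35329966 (day 0), 38827241 (day 3), 40601920 (day 6), 43554233 (day 9) and 33425695 (day 12) unique molecular identifiers (UMIs, 1 per captured molecule). Barcodes with at least 500 UMIs were taken as cells and numbered 6680, 5474, 6506, 7604 and 5871 in the same order, 32135 in all, with medians of 2874 to 3786 UMIs. Between 44 and 73 of these barcodes were shared by each pair of libraries, at most 1.24% of either. The median mitochondrial share of a barcode was 0.691% on day 12 and 1.66% to 2.19% on the other days. Each day is 1 mouse, so no value has a replicate within a day, and the Poisson and binomial intervals given cover counting error only.

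Libraries also stood apart in a group of genes that is not part of the granule. In GMP-like barcodes, described next, the summed level of 11 immediate-early genes (Fos, Fosb, Jun, Junb, Jund, Klf2, Klf6, Dusp1, Ier2, Egr1 and Nr4a1) was 38.0 UMIs per 10000 on day 0, 15.99 on day 3, 11.9 on day 6, 15.9 on day 9 and 26.1 on day 12. T-like barcodes gave 38.8, 22.6, 25.4, 23.9 and 35.3 in the same order. Days 0 and 12 were the highest in both classes, so a difference that sets these days against days 3, 6 and 9 cannot be told apart from whatever made the libraries differ.

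Barcodes were clustered without the 4 genes and their companions, and clusters were named from lists of marker genes that hold none of the 4. The suffix "-like" is kept because the names rest on markers alone. Granulocyte-monocyte progenitor-like (GMP-like) barcodes formed 2 clusters. One, of 368 barcodes, was led by Ms4a3, Prss57 and Gstm1 and passed 9 of the 10 GMP markers, and the other, of 244 barcodes, was led by Cd34, Mif and Phgdh and passed 6. They are called the Ms4a3-led and the Mif-led cluster. The Mif-led cluster also passed 4 early progenitor markers, and its 10 leading genes held 1 GMP and 1 early progenitor marker. Early progenitor-like barcodes (355, led by Dntt, Cd34 and Egfl7) passed 8 of 12 markers, and Dntt is also in the pro/pre-B list. Neutrophil precursor-like barcodes (1811) formed 4 clusters. The largest, of 666 barcodes, passed 6 precursor and 6 immature neutrophil markers, with 4 of each among its 10 leading genes. Those of 625 and 150 barcodes passed 6 and 5 precursor markers and 7 and 8 immature neutrophil markers. Their leading genes held more of the precursor markers. Monocyte progenitor-like barcodes (804) formed 2 clusters. One of these 2, of 367 barcodes, passed 8 of 10 monocyte progenitor markers and 10 of 12 monocyte markers, and its 10 leading genes held 2 of the first and 3 of the second list. It was placed with the progenitors because the cycling genes Mki67 and Top2a passed, a rule set after the clusters had been seen.

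Most transcripts of the 4 genes lay in few cells. GMP-like barcodes were 1.90% of all barcodes and held 74.4% of the Mpo UMIs (exact binomial interval 74.0% to 74.8%), 72.9% of the Elane UMIs, 63.9% of the Prtn3 UMIs and 73.2% of the Ctsg UMIs found in barcodes with at least 500 UMIs. The share was lowest for Prtn3, between 54.0% and 69.2% over the 5 libraries. Neutrophil precursor-like barcodes held 10.7% of Elane and 9.34% of Prtn3 but 3.42% of Mpo and 2.13% of Ctsg. Monocyte progenitor-like barcodes held 10.3% of Prtn3, 9.02% of Ctsg, 6.16% of Elane and 4.12% of Mpo. An unnamed cluster with a high mitochondrial share held 4.67% of Mpo, the largest share of that gene after the GMP-like class, and 1.96% of Prtn3, 1.18% of Ctsg and 1.16% of Elane. Late neutrophil-like barcodes, 31.0% of all, held between 1.77% and 2.18% of each gene.

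Levels are given as UMIs per 10000 UMIs, summed over the barcodes of a class in a library, for classes with at least 20 barcodes. Orders of classes are among the 12 that reached 20 barcodes in all 5 libraries, so they leave out basophil or mast-like barcodes, which are described later. A UMI count from the 3′ end counts 1 molecule once whatever the transcript's length, so these levels are also set side by side between genes. Monocyte progenitor-like levels include the cluster of 367 barcodes that leans to monocytes. Without it the class medians were 3.87 for Mpo, 11.0 for Elane, 11.9 for Prtn3 and 5.67 for Ctsg, against 2.24, 7.35, 7.86 and 3.52.

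Mpo, the peroxidase, stood at 42.0 (interval 41.1 to 42.9) in GMP-like barcodes on day 0, 37.7 on day 3, 37.2 on day 6, 41.8 on day 9 and 38.1 on day 12. Early progenitor-like barcodes followed with 5.09, 2.28, 4.55, 4.83 and 2.58, and monocyte progenitor-like barcodes with 1.73, 2.39, 2.24, 2.96 and 1.56. The ranges of these last classes overlapped, and both lay far under the GMP-like range. Early progenitor-like barcodes were uneven. The 10% of barcodes with the most UMIs of a gene held 59.1% of the UMIs of Mpo, 59.0% of Elane, 45.0% of Prtn3 and 64.2% of Ctsg. The median over barcodes there was 0.997 for Mpo, 3.09 for Prtn3 and 0 for Elane and Ctsg. Neutrophil precursor-like barcodes ranged from 0.376 to 1.11 with a median of 0.947. The remaining classes of the 12 overlapped one another, from a median of 0.546 in plasmacytoid dendritic-like to 0.303 in monocyte-like barcodes, with B-like at 0.444 and T-like at 0.349.

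Elane, which encodes neutrophil elastase, was the most abundant of the 4 in GMP-like barcodes, with 97.7, 58.6, 69.9, 71.6 and 83.8 on days 0, 3, 6, 9 and 12. Monocyte progenitor-like barcodes came next at 7.35, 5.40, 7.38, 7.68 and 5.58, and neutrophil precursor-like barcodes at 4.91, 2.30, 5.88, 6.15 and 6.58, and these ranges overlapped. Early progenitor-like barcodes held 0.712, 0.285, 1.01, 0.857 and 0.407. Elane was the only member whose early progenitor level overlapped those of B-like (0.343 to 0.850) and T-like barcodes (0.422 to 0.771), which were used as the reference for a low level.

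Prtn3 reached 52.8, 40.8, 45.9, 44.4 and 45.3 in GMP-like barcodes on days 0, 3, 6, 9 and 12. Monocyte progenitor-like barcodes gave 7.97, 7.37, 7.86, 8.47 and 6.31, and early progenitor-like barcodes 4.34, 3.39, 8.50, 6.51 and 3.95. Those ranges overlapped, and the early progenitor range also met that of neutrophil precursor-like barcodes (1.66 to 3.73), though in each library the early progenitor level was the higher. Prtn3 was also the only member whose level in monocyte-like barcodes, 1.03 to 1.21 with a median of 1.08, lay above the range of every class that came after it except NK-like barcodes (0.248 to 1.21).

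Ctsg, which encodes cathepsin G, was the least abundant, at 31.4, 21.2, 22.5, 23.0 and 30.7 in GMP-like barcodes on days 0, 3, 6, 9 and 12. Monocyte progenitor-like barcodes held 3.78, 3.55, 2.90, 3.52 and 3.11, and early progenitor-like barcodes 2.60, 1.36, 2.54, 2.21 and 2.85. These classes did not overlap. Neutrophil precursor-like barcodes (0.231 to 0.402, median 0.372) overlapped B-like barcodes (median 0.324), though they were the higher in each library. In plasmacytoid dendritic-like barcodes of day 12 no Ctsg UMI was found.

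**Figure D1:**
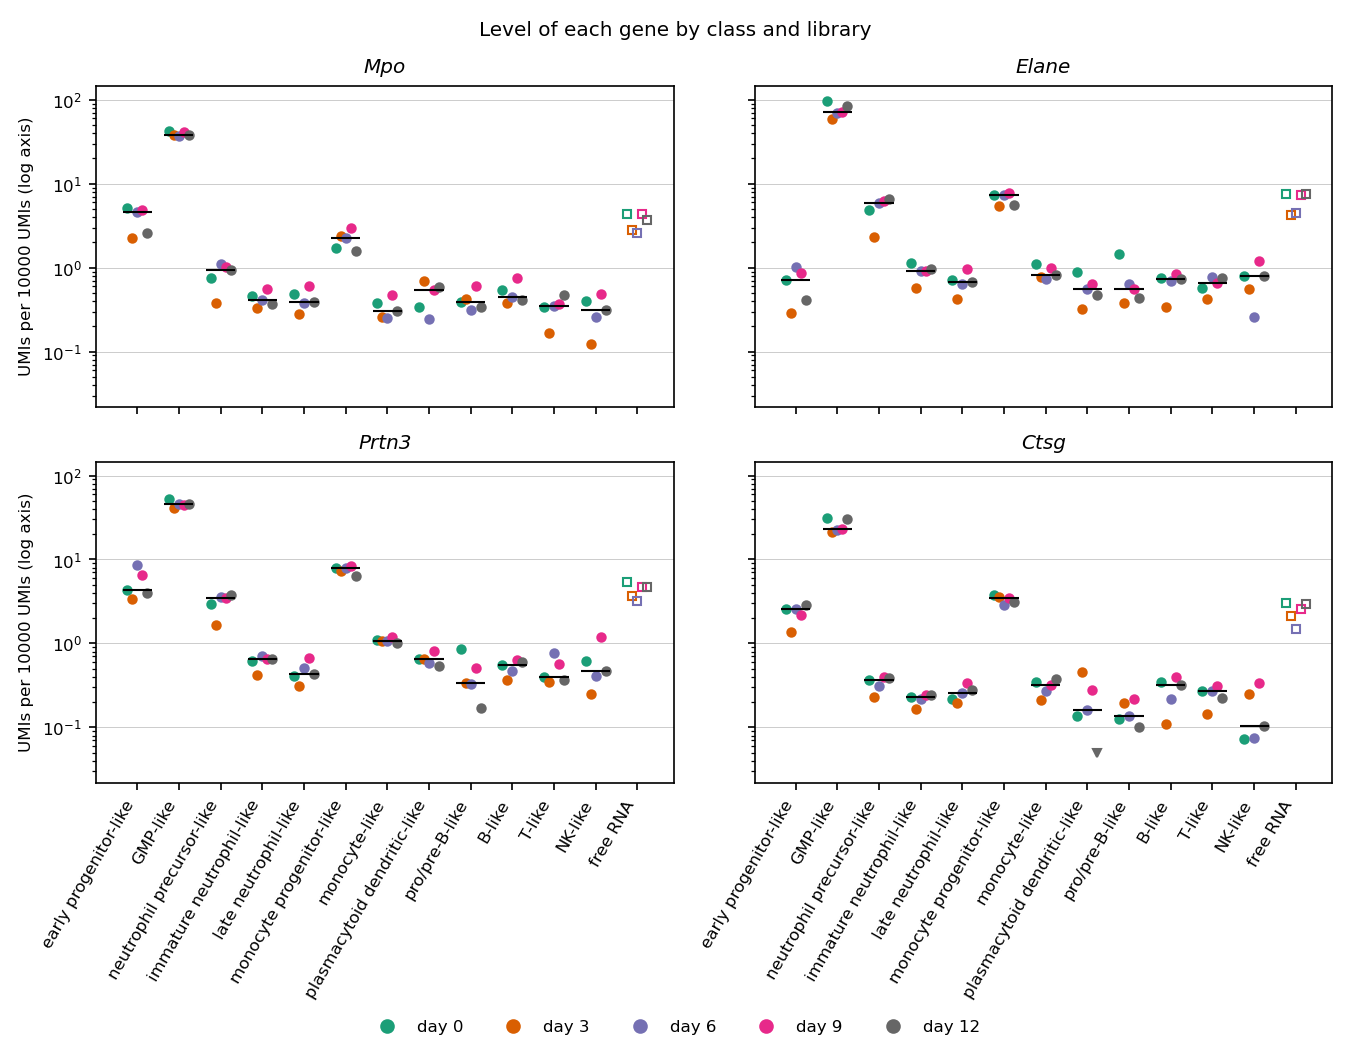
Level of each gene, in UMIs per 10000 UMIs on a log axis, in 12 classes of barcodes and in free RNA (squares, barcodes with at most 100 UMIs). Each point is 1 library and each line the median over 5, and the triangle marks a count of 0; all 4 genes peak in GMP-like barcodes, where Elane has a median of 71.6 and Ctsg of 23.0.

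The contrasts between classes ask where along the marrow hierarchy the transcripts rise and fall. Each was taken within a mouse as a log2 ratio of levels with 0.1 added, and a gene was counted when it passed 2-fold in the same direction in each of the 5 libraries. All 4 genes were higher in GMP-like than in early progenitor-like barcodes in 5 of 5 mice and passed 2-fold in each, as did 0.737% of the 9224 genes tested. All 4 were likewise higher than in neutrophil precursor-like barcodes, where 9.56% of 9612 genes were, and than in monocyte progenitor-like barcodes, where 1.02% of 9571 genes were. The exact sign-flip permutation test over the 5 mice, two-sided, gave p = 0.06 (1 in 16) for each of the 12 ratios and the same value after Benjamini-Hochberg adjustment, and this is the smallest p that 5 mice allow. No member could therefore pass 0.05. In the lower direction 1.16%, 1.27% and 3.59% of genes passed 2-fold in the 3 contrasts, and none of the 4.

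The members differed in size within each contrast. Against early progenitor-like barcodes the median log2 ratio was 6.91 for Elane (5.98 to 7.37), 3.49 for Prtn3 (2.42 to 3.57), 3.38 for Ctsg (3.10 to 3.87) and 3.09 for Mpo (3.01 to 3.99). Elane had the largest median of all genes tested there, 120-fold, but its size rests on the border of the early progenitors and on their low level, which overlapped that of B- and T-like barcodes: the log2 ratio was 2.94 when the Mif-led cluster was joined to them and 4.12 with immediate-early and histone genes left out of clustering. With free RNA taken off the log2 ratio came to 9.47, but the early progenitor level fell so low there that the 0.1 added set the ratio. The other 3 ratios were likewise smaller with the Mif-led cluster joined to the early progenitors, down to 1.46 for Mpo, 1.71 for Prtn3 and 1.39 for Ctsg. Against neutrophil precursor-like barcodes the order was another one, with 5.97 for Ctsg (5.52 to 6.06), 5.24 for Mpo (4.95 to 6.31), and 3.65 for both Elane (3.52 to 4.61) and Prtn3 (3.57 to 4.54). Ctsg ranked 1 of all genes tested in that contrast, at 62.6-fold, and Mpo ranked 2. The size and the rank of the Ctsg ratio rest in part on a precursor level that overlapped that of B-like barcodes. The log2 value of this ratio ranged from 5.50 with scaling over all libraries to 6.19 with the second round at resolution 0.6. With free RNA taken off the log2 ratio of Ctsg came to 7.19, a value in which the 0.1 added to the precursor level weighs heavily. Against monocyte progenitor-like barcodes Mpo had a median of 3.99, Elane of 3.42, Ctsg of 2.92 and Prtn3 of 2.53. The median over all genes tested was -0.12, 0.32 and -0.09 in these 3 contrasts.

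Clusters inside the classes resolve this further. All 4 genes were already higher in the Mif-led cluster than in early progenitor-like barcodes by 2-fold in each library, as were 0.321% of 8412 genes (0.689% were lower). Median ratios were 57.3-fold for Elane (22.5 to 62.3), 7.92-fold for Ctsg, 6.84-fold for Prtn3 and 6.75-fold for Mpo. The size for Elane rests on the same low early progenitor level and the same border as above. The Mif-led GMP-like cluster had the deeper barcodes, with a median of 18728.5 UMIs against 14259 in the Ms4a3-led cluster. In the Mif-led cluster Mpo had a median over libraries of 29.9, Elane of 27.7, Prtn3 of 28.7 and Ctsg of 18.1. In the Ms4a3-led cluster Mpo had a median of 46.8, Elane of 115, Prtn3 of 58.5 and Ctsg of 27.6. Each gene was higher in the Ms4a3-led cluster in 5 of 5 mice. Only Elane passed 2-fold in each, at a median of 4.29-fold (2.69 to 5.36), as did 0.897% of 8138 genes, and 0.922% were lower. The median ratio was 1.58-fold for Mpo, 1.56-fold for Ctsg and 2.02-fold for Prtn3, none of which passed 2-fold in each library.

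The fall in the precursors was uneven too. The precursor clusters are taken here in order of falling Elane level. The first, of 370 neutrophil precursor-like barcodes and led by Fcnb and Ms4a3, had medians of 22.3 for Elane (10.5 to 29.2), 11.4 for Prtn3 (6.44 to 14.5), 2.70 for Mpo (1.27 to 4.55) and 0.939 for Ctsg (0.530 to 1.11). Compared with the Ms4a3-led GMP-like cluster of the same library, Ctsg was lower by a median of 32.7-fold, Mpo by 16.2-fold, Elane by 5.57-fold and Prtn3 by 5.11-fold. All 4 passed 2-fold in each library, as did 4.60% of 7471 genes (0.482% were higher), and Ctsg had the lowest ratio of all of them. The next precursor cluster, of 625 barcodes, was led by Fcnb and Orm1. Elane (median 2.32, 0.477 to 2.83) and Prtn3 (1.82, 0.902 to 2.17) were still above T-like barcodes there in each library. On day 3 Elane was near them, at 0.477 against 0.422. Mpo (0.347) and Ctsg (0.225) were at the level of T-like barcodes. In the precursor cluster led by Chil3 (666 barcodes) all 4 genes had medians of 0.165 to 0.429, near those of T-like barcodes. In this order, Elane and Prtn3, the neighbouring genes, thus stayed above T-like barcodes for more clusters than Ctsg and Mpo. The order rests on Elane level and not on time, and a cluster chosen for its Elane level favours a small fall of that gene.

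**Figure D2:**
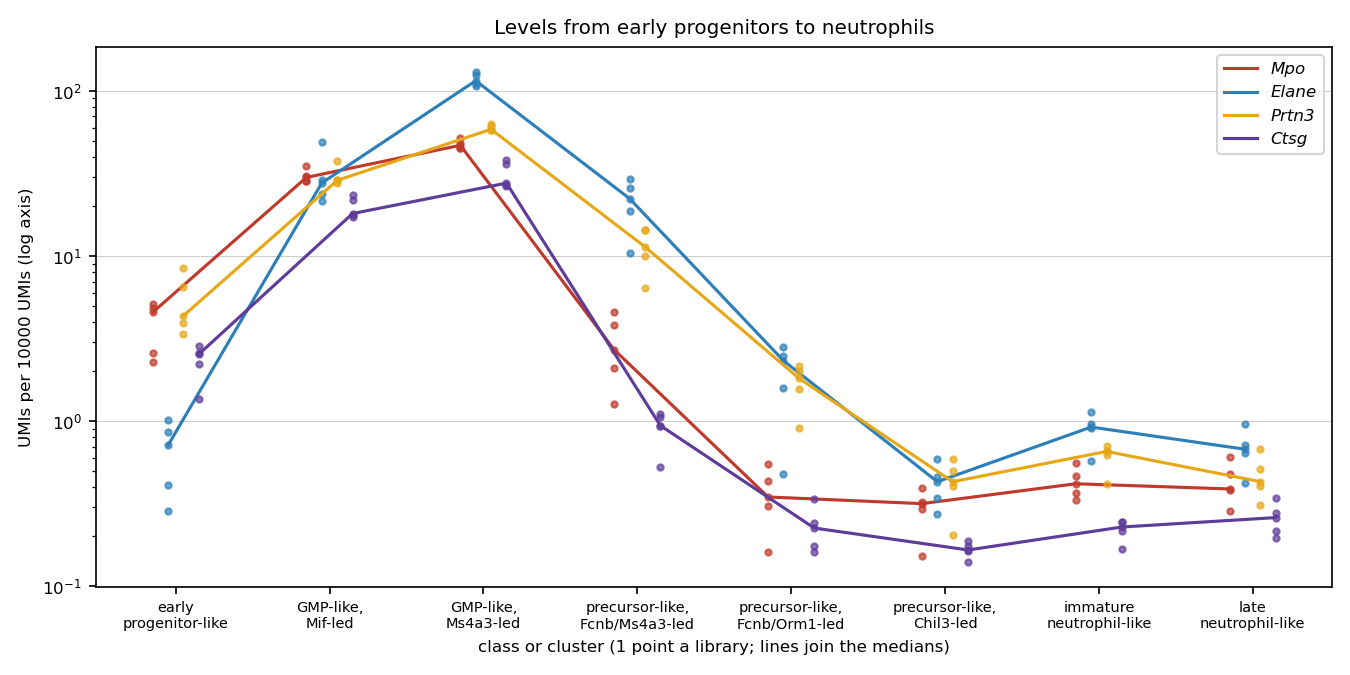
Levels of the 4 genes, in UMIs per 10000 UMIs on a log axis, in clusters and classes from early progenitors to late neutrophils. Classes are in order by marker genes. Within a class, GMP-like clusters are in order of rising and precursor clusters of falling Elane level. No order was measured as time, and the precursor cluster with the lowest Elane level is not drawn. Points are libraries and lines join medians; Elane climbs from 0.712 to 115 and Ctsg falls from 27.6 to 0.939 in the first precursor cluster, while Elane is still at 22.3 there.

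The make-up of the UMIs of the 4 genes shows the same shift as shares, with the clusters again in the order set by Elane level. Elane made up a median of 5.59% of them in early progenitor-like barcodes, 26.7% in the Mif-led and 45.6% in the Ms4a3-led GMP-like cluster, and 58.8% in the precursor cluster led by Fcnb and Ms4a3. Mpo went the other way, with 31.2%, 27.6%, 18.8% and 7.25%, and Ctsg went from 18.6% and 17.6% to 11.1% and 2.50%. Prtn3 had its largest share in early progenitor-like barcodes, 45.2%, and lay between 23.0% and 31.3% in the other 3.

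Free RNA, read from barcodes with at most 100 UMIs, held the 4 genes at 11.8 to 20.4 UMIs per 10000 over the libraries. The number of Elane UMIs for each Mpo UMI had a median of 1.73 in it (1.51 to 2.09 over libraries). In classes with low levels it was 1.57 (1.48 to 1.74) in late neutrophil-like, 2.21 (1.61 to 2.61) in immature neutrophil-like and 1.78 (1.57 to 2.5) in T-like barcodes. It was 1.37 (0.903 to 1.78) in B-like, 1.3 (0.907 to 3.78) in pro/pre-B-like, 1.18 (0.468 to 2.6) in plasmacytoid dendritic-like and 2.5 (1 to 4.5) in NK-like barcodes. The ranges overlap, so these values do not tell whether the classes share 1 ratio, and how much of their levels is free RNA was not tested. Monocyte-like barcodes had another mix, with a median of 3.38 Prtn3 UMIs for each Mpo UMI (2.57 to 4.15) against 1.24 (1.09 to 1.29) in free RNA.

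**Figure D3:**
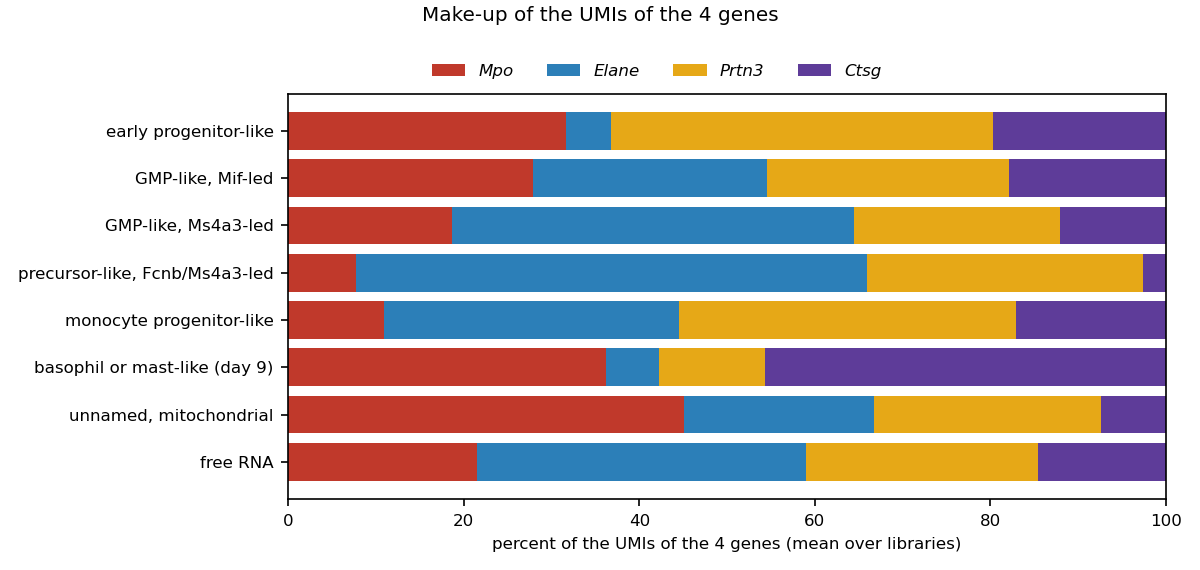
Make-up of the UMIs of the 4 genes, as percent and as the mean over libraries, in classes and clusters and in free RNA. Elane takes the largest part in the Ms4a3-led GMP-like cluster and the precursor cluster after it, Ctsg in basophil or mast-like barcodes of day 9, and Mpo in an unnamed cluster with a high mitochondrial share.

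On the monocyte side the 2 clusters differed. The monocyte progenitor-like cluster led by Ass1 and F13a1 (437 barcodes) had medians of 11.0 for Elane, 11.9 for Prtn3, 5.67 for Ctsg and 3.87 for Mpo. The other, led by C1galt1c1, F13a1 and Kpna2 (367 barcodes), had 1.20 for Elane, 2.52 for Prtn3, 0.994 for Ctsg and 0.371 for Mpo. Without this second cluster, whose markers lean to monocytes, the median log2 ratio of GMP-like over monocyte progenitor-like barcodes was 3.28 for Mpo, 2.70 for Elane, 2.14 for Ctsg and 1.86 for Prtn3. Barcodes of the first cluster were uneven for Mpo: the 10% with the most UMIs of a gene held 65.6% of the Mpo UMIs, 57.7% of those of Elane, 48.2% of Ctsg and 40.4% of Prtn3. Prtn3 was the most widespread there, with 1.71 UMIs per 10000 at the lower quartile and 6.51 in the median barcode. In the Ms4a3-led GMP-like cluster the 10% with the most held 24.0% of the Mpo UMIs.

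Basophil or mast-like barcodes, led by Prss34, Mcpt8 and Cpa3, passed 8 of 8 basophil or mast markers and also 7 GMP markers. They numbered 62 and reached 20 in day 9 alone, with 27. There Ctsg stood at 17.1 (interval 15.5 to 18.9) and Mpo at 13.6 (12.1 to 15.2), while Prtn3 was at 4.53 and Elane at 2.26. Ctsg was the largest part of the 4 genes, 45.6%, and Elane the smallest, 6.04%. Over all 62 barcodes Ctsg was found in 83.9% and Mpo in 82.3%, at a median depth of 9075 UMIs.

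Shares of barcodes with a UMI tell how widely a gene was found, and rise with depth. In GMP-like barcodes, with a median of 16092 UMIs, Mpo was found in 99.3%, Elane in 97.9%, Prtn3 in 99.7% and Ctsg in 97.1%. B-like barcodes, with a median of 1654 UMIs, gave 9.93%, 13.7%, 10.1% and 5.82%, and T-like barcodes, with 2435 UMIs, gave 9.22%, 15.4%, 10.6% and 6.38%. After each barcode was thinned to 1000 UMIs, GMP-like barcodes still gave 91.1% for Mpo (exact binomial interval 88.6% to 93.3%), 88.5% for Elane, 95.2% for Prtn3 and 75.7% for Ctsg. Thinned B-like barcodes gave 5.29%, 7.49%, 5.25% and 3.32%. Early progenitor-like barcodes, thinned, held Prtn3 in 31.4%, Mpo in 20.3% and Ctsg in 13.6%, but Elane in 5.37% (3.26% to 8.25%), which is no more than in B-like barcodes.

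All 4 genes together were found in 65.5% of thinned GMP-like barcodes, and none of them in 0.493%. In the precursor cluster led by Fcnb and Ms4a3 all 4 were found in 1.62% and none in 23.2%. Within the Mif-led GMP-like cluster Elane varied most between barcodes, by the ratio of the ninetieth to the tenth percentile, from 1.32 to 68.0, while Prtn3 ran from 12.7 to 44.5. By the same ratio Ctsg varied most in the Ms4a3-led cluster, from 2.03 to 59.7, while Elane had the wider range in UMIs per 10000 and ran from 41.0 to 195.0.

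The days ask whether the transcripts of the progenitors changed while leukemia grew. All 4 comparisons share the day 0 mouse, and no single day can be tested against another with 1 mouse each. A trend over the days was not tested. Of the 16 ratios to day 0 in GMP-like barcodes (4 genes, 4 days), 1 passed 1.5-fold: Elane on day 3 had a log2 ratio of -0.74 (ratio interval 0.585 to 0.615). On day 3, 2.28% of 5223 genes were lower by 1.5-fold and 5.11% higher, on day 6 2.26% and 5.54%, on day 9 1.74% and 4.94%, and on day 12 1.20% and 1.11%. Elane on day 3 had log2 ratios from -0.92 to -0.25 under the other settings tried, so its side of 1.5-fold depends on them. All 16 ratios were under 1, the highest being 0.994 for Mpo on day 9 and 0.977 (0.944 to 1.01) for Ctsg on day 12. Their direction was not firm in 3 cases, since some settings put Mpo on days 3 and 9 and Ctsg on day 12 above day 0.

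The GMP-like class is a mixture of its 2 clusters. The Ms4a3-led cluster made up 81 of 131 GMP-like barcodes on day 0, 44 of 89 on day 3, 54 of 90 on day 6, 106 of 177 on day 9 and 83 of 125 on day 12. Inside it none of the 16 ratios passed 1.5-fold in either direction. On days 3, 6, 9 and 12, 4.86%, 4.17%, 3.14% and 2.74% of genes there were lower by 1.5-fold and 3.87%, 5.83%, 6.22% and 1.60% higher. Mpo was 46.8, 48.2, 45.0, 52.1 and 45.3 on days 0, 3, 6, 9 and 12, and Prtn3 was 63.2, 58.0, 61.1, 58.1 and 58.5. Elane was 131, 109, 107, 115 and 125, and Ctsg was 38.0, 27.0, 26.4, 27.6 and 36.2. Mpo and Prtn3 kept within 1.16-fold between the lowest and the highest day. Elane and Ctsg were higher on days 0 and 12 than on days 3, 6 and 9, the split that was seen in immediate-early genes, and Ctsg by the larger ratio. The cause of this split was not tested.

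Inside the Mif-led cluster Elane was 48.7 on day 0 (47.2 to 50.2) and 23.9, 27.7, 21.4 and 28.9 on days 3, 6, 9 and 12. Its ratio to day 0 passed 1.5-fold downward on all 4 later days, at 0.490, 0.569, 0.440 and 0.594, where 3.54%, 3.94%, 3.64% and 2.78% of genes did and 5.87%, 6.96%, 6.42% and 3.17% were higher. The cluster had 36 to 71 barcodes a library, and 1 mouse stands for day 0. Prtn3 was 37.6 on day 0 and 27.6 to 29.0 later, and Mpo 34.9 and 28.4 to 30.6, without passing 1.5-fold. Ctsg was 21.7, 17.3, 18.1, 17.7 and 23.3.

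**Figure D4:**
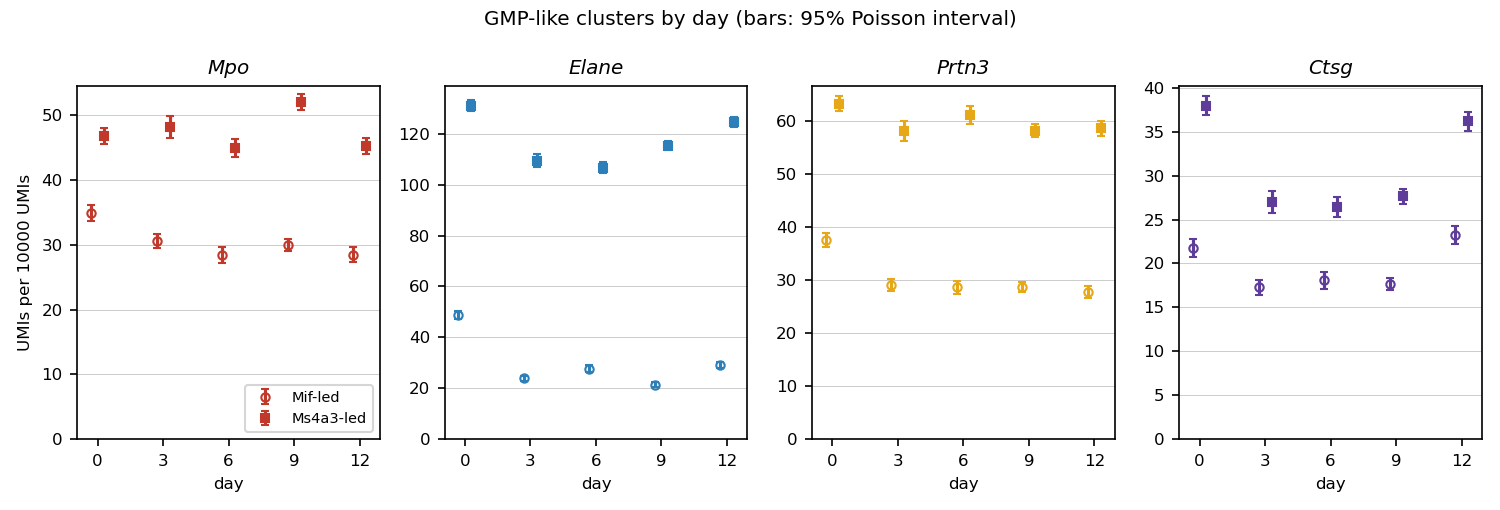
Level of each gene by day, in UMIs per 10000 UMIs, in the Mif-led (open circles) and the Ms4a3-led (filled squares) GMP-like cluster. Each point is 1 library with its exact 95% Poisson interval; Ctsg is higher on days 0 and 12 in both clusters, and Elane in the Mif-led cluster is highest on day 0, at 48.7.

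Day 3 was a low day in many classes. In the precursor cluster led by Fcnb and Ms4a3, Elane was 18.8, 10.5, 26.0, 29.2 and 22.3 on days 0, 3, 6, 9 and 12, and Prtn3 was 9.98, 6.44, 14.4, 14.5 and 11.4. Mpo and Ctsg had their lowest value on day 3 as well, 1.27 and 0.530. All 4 genes were also lowest on day 3 in neutrophil precursor-like, early progenitor-like, immature and late neutrophil-like, B-like and T-like barcodes, and Elane, Prtn3 and Ctsg were in GMP-like barcodes. A low day 3 in the precursors, or of Elane in GMP-like barcodes, therefore cannot be told apart from a trait of that library.

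Patterns most like the mean of the 4 genes were sought over 63 points, each a class in 1 library, among 2942 genes. The points share libraries and depth, so the correlation is a description. Dmkn had the highest Pearson r, 0.898, followed by Gatm (0.850), Ms4a3 (0.825), Prss57 (0.818), Gstm1 (0.795), Atpif1 (0.776), Pgam1 (0.773), Ap3s1 (0.770), Alas1 (0.751) and Tuba4a (0.750), and no gene passed 0.9. The median r over all genes was 0.0875. Among the members Mpo and Ctsg were most alike (r = 0.953), then Mpo and Prtn3 (0.925) and Prtn3 and Ctsg (0.924), and Elane was nearer to Ms4a3 (0.893) than to Prtn3 (0.883), Mpo (0.806) or Ctsg (0.800). Dmkn had a median level of 0.935 in GMP-like barcodes against 0.0356 in early progenitor-like and 0.0279 in neutrophil precursor-like barcodes.

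Lists of related genes were read in the same 3 contrasts, and a gene is said to have passed when it passed 2-fold in each of the 5 libraries. Beyond 4 examples a list, genes are named because they passed, which was known only after their values were seen. Over all genes tested, 0.737% passed upward and 1.16% downward against early progenitor-like, 9.56% and 1.27% against neutrophil precursor-like, and 1.02% and 3.59% against monocyte progenitor-like barcodes, and the counts of each list are to be read beside these shares.

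Other azurophil contents and their packaging did not move as one with the 4 genes. Of 15 genes in that list 14 were tested, and 2 were higher in GMP-like than in early progenitor-like barcodes by 2-fold in each library, the serine protease gene Prss57 (median log2 ratio 2.42) and Cd63 (2.31), which encodes a granule membrane protein. Against neutrophil precursor-like barcodes Prss57, Gusb and Srgn were higher and Lyz1 and Lyz2 lower. Srgn encodes serglycin, the proteoglycan that holds the proteases in the granule, and had medians of 17.1 in GMP-like, 8.97 in early progenitor-like and 1.32 in neutrophil precursor-like barcodes. Lyz2, for lysozyme, ran the opposite way, at 16 in GMP-like, 97.4 in neutrophil precursor-like and 146 in monocyte progenitor-like barcodes. Against monocyte progenitor-like barcodes 3 of the list were higher and 3 lower. The list's median log2 ratios were 0.36, 0.57 and -0.35 against -0.12, 0.32 and -0.09 over all genes tested.

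Genes that fold the products or trim them into active enzymes formed a list of 11. None of the 10 tested passed against early progenitor-like barcodes, 4 of 10 were higher than in neutrophil precursor-like barcodes (Ctsc, Calr, Canx and Hspa5), and against monocyte progenitor-like barcodes, where all 11 were tested, Calr was higher and Ctsc lower. Calr, for the chaperone calreticulin that binds the myeloperoxidase precursor, had a median of 9.48 in GMP-like and 0.472 in neutrophil precursor-like barcodes, a log2 ratio of 4.13. Ctsc, for the peptidase that activates the serine proteases, had its higher level on the monocyte side, 2.89 in monocyte progenitor-like against 0.438 in GMP-like barcodes. The list's medians were 0.25, 1.0 and -0.11 in the 3 contrasts.

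Protease inhibitors made up 10 genes, of which 5, 7 and 7 were tested in the contrasts against early progenitor-like, neutrophil precursor-like and monocyte progenitor-like barcodes. Cst7, a cystatin gene that was also among the GMP markers, was higher in all 3, and Serpinb1a, which encodes an inhibitor of neutrophil elastase, was higher against monocyte progenitor-like barcodes. Serpinb1a was at 3.66 in GMP-like and 6.33 in neutrophil precursor-like barcodes, where Elane had fallen. The medians of the list were 0.60, -0.22 and 0.11.

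Transcription factors of the lineage numbered 15, and 14 of them were in the files and tested (Cebpd was not in the files). Cebpe alone passed upward against early progenitor-like barcodes. Against neutrophil precursor-like barcodes 7 were higher (Cebpa, Myb, Irf8, Klf4, Lmo2, Myc and Etv6) and Cebpe was lower. Cebpe rose from 0.266 in early progenitor-like to 1.94 in GMP-like and 5.75 in neutrophil precursor-like barcodes, while Myb went from 1.45 to 1.72 and then 0.304, and Cebpa from 0.218 to 0.641 and then 0.0685. Against monocyte progenitor-like barcodes Cebpe, Gfi1, Myb and Myc were higher and Irf8 and Klf4 lower. Cebpe, Gfi1, Myb, Irf8 and Klf4 are also in the marker lists that named these classes. Their ratios are therefore not all independent of the naming. Spi1, which encodes PU.1, passed in none of the 3 contrasts, with medians of 2.34 in GMP-like, 1.58 in early progenitor-like and 2.65 in neutrophil precursor-like barcodes. The list's medians were -0.26, 0.97 and 0.35.

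Of the secondary and tertiary granule genes, 14 in all and all tested, most took the reverse course at the next stage. None was higher in GMP-like than in neutrophil precursor-like barcodes and 9 were lower, where 1.27% of genes were, with a list median of -2.86. Chil3, Orm1, Camp and Ngp of this list are also leading genes of precursor clusters, and leading genes were used in naming. The count is therefore not independent of how the class was named. Ltf had the lowest ratio (-4.34), and Camp went from 81.0 to 720 UMIs per 10000. Fcnb, Pglyrp1 and Hp were higher in GMP-like than in early progenitor-like barcodes and Camp, Fcnb and Pglyrp1 higher than in monocyte progenitor-like barcodes, where Cybb was lower. The medians in those contrasts were 0.61 and -0.12.

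Receptors and surface markers of progenitors (15 genes, all tested) gave 4 higher and 2 lower genes against early progenitor-like, 4 and 0 against neutrophil precursor-like, and 3 and 4 against monocyte progenitor-like barcodes, with medians of -0.18, 0.70 and -0.45. Ms4a3, a GMP marker, was higher in all 3 and had a median of 10.7 in GMP-like barcodes. Flt3 and Cd34 were lower than in early progenitor-like barcodes, with log2 ratios of -2.72 and -1.34. Both are early progenitor markers and leading genes of that cluster, and Kit, Csf1r and Ly6c2, which also passed, are in marker lists too. These counts are therefore not independent of how the classes were named.

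Other peroxidases, 9 genes with 6 tested, gave Prdx5 higher against early progenitor-like barcodes, and Prdx1 and Prdx2 higher and Prdx5 lower against neutrophil precursor-like barcodes, with none against monocyte progenitor-like barcodes. The list's medians were 0.26, 1.05 and -0.31. Lpo, the neighbour of Mpo, had too few counts to be tested and a median of 0 in GMP-like barcodes. Epx, for eosinophil peroxidase, had a median of 0.166 there. Of the 14 mast cell proteases and granzymes, which include the neighbours of Ctsg, 3, 4 and 3 were tested and none passed, with medians of 0.42, 0.63 and 1.03. Mcpt8, next to Ctsg, was at 0.179 in GMP-like barcodes and at 76.1 in the basophil or mast-like barcodes of day 9.

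The 10 cell cycle genes, all tested, had medians of -0.01, -0.57 and -1.17 in the 3 contrasts. None was higher in GMP-like barcodes. Ube2c was lower than in neutrophil precursor-like barcodes, and Mki67, Top2a, Ube2c and Hmgb2 were lower than in monocyte progenitor-like barcodes. The last contrast was set in part by the naming, because a cluster was placed in that class when Mki67 and Top2a passed. Mki67 stood at 0.756 in GMP-like, 0.911 in early progenitor-like and 1.57 in neutrophil precursor-like barcodes.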

How the data were processed

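Single-cell RNA of whole bone marrow was measured in 5 mice, each killed on another day between day 0 and day 12. The deposited matrices hold raw UMI counts per gene and barcode, empty droplets included, made by the authors with Cell Ranger on the mm10 build. The annotation release used for counting is not stated, and gene positions are from GENCODE.

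Barcodes with at least 500 UMIs were kept, and those with at most 100 UMIs gave free RNA. Clustering used Python 3.11.15, scanpy 1.11.5, leidenalg 0.10.2 and scikit-learn 1.9.0: 1000 variable genes a library, 20 components, 20 neighbours and Leiden resolution 0.6, then a second round at resolution 1 on progenitor and precursor clusters, with genes scaled within each library. The 4 genes and their companions were left out of the clustering genes. Clusters were named from 20 marker lists by the share of a list that passed and by the 10 leading genes. At least 3 markers had to pass. A marker passed when found in at least 20% of a cluster's barcodes and at 2-fold or more of the other clusters' mean level. Rules set after the clusters had been seen left a cluster led by class II genes unnamed and named a monocyte cluster with Mki67 and Top2a a monocyte progenitor.

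Counts were summed by class and library and divided by summed UMIs, and exact 95% intervals were computed with scipy 1.17.1. Class ratios were paired within mouse (sign-flip permutation, 12 tests). Genes with at least 50 summed counts were compared, with 0.1 added before log2. Depth gave GMP-like Mpo on day 0 an interval of 41.1 to 42.9. Single days could not be tested against each other, with 1 mouse each, and a trend over the days was not tested. The calling of genes was tested on simulated data.

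Named by rule are the 4 genes, the 10 genes with the most similar pattern, up to 4 examples from each of 9 lists of related genes, and annotated neighbours. Further list genes that passed, leading genes of clusters and the immediate-early genes are named as well, after their values were seen. The members and lists were chosen with earlier results of these data known. Alternatives tried were at least 1000 UMIs, barcodes with a high mitochondrial share or scored as doublets left out, other resolutions, the 4 genes kept in clustering, means over barcodes, thinning to 1000 UMIs, free RNA taken off, the 4 genes left out of the total, at least 20 summed counts and each library left out. Chosen after seeing the data were a second round at resolution 0.6, scaling over all libraries, immediate-early and histone genes left out of clustering, and monocyte progenitors without the cluster that leans to monocytes.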

Additional observations from a re-analysis of the deposited data

Results flagged for a closer look

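A signal for all 4 genes appeared in barcodes that no comparison of the report uses. An unnamed cluster of 1573 barcodes, with a median mitochondrial share of 59.6% and a median of 796 UMIs, passed no marker list. It held Mpo at a median over libraries of 13.9 UMIs per 10000, Elane at 9.04, Prtn3 at 8.32 and Ctsg at 1.58, all as sums over barcodes. Few barcodes carried these sums: for each gene at least 75% of the barcodes held no UMI, and the 10% with the most held 90.9% of the UMIs of Mpo, 86.3% of Elane, 86.2% of Prtn3 and 95.6% of Ctsg. The minimum over libraries lay above the maximum in B-like barcodes for each gene. Mpo and Prtn3 were above free RNA in each library, Elane in each but day 3, and Ctsg on days 0 and 12 alone. By day Mpo was 20.6, 9.02, 12.6, 13.9 and 25.02, and Ctsg 5.09, 1.53, 1.33, 1.58 and 4.65. Mpo made up 45.6% of the UMIs of the 4 genes there, against 22.0% in free RNA. What these barcodes are was not tested. In the 28 groups of 5 libraries that were checked for a single library far from the others by Dixon's ratio, none passed the 95% critical value.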

How the results depend on the processing

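All 12 ratios between GMP-like barcodes and the other progenitors and precursors kept their direction under each alternative that gave a value (192 values). The log2 ratio over early progenitor-like barcodes ranged most, from 2.94 to 7.45 for Elane with the setting that takes free RNA off left aside, 1.46 to 3.55 for Mpo, 1.71 to 3.65 for Prtn3 and 1.39 to 3.92 for Ctsg. Over neutrophil precursor-like barcodes Ctsg ranged from 5.50 to 6.19, with the same setting left aside, and Elane from 3.32 to 4.35, and over monocyte progenitor-like barcodes Mpo ranged from 3.28 to 4.80. With free RNA taken off, Elane over early progenitor-like barcodes came to 9.47 and Ctsg over neutrophil precursor-like barcodes to 7.19, and the 0.1 added to low levels sets the first and much of the second. The 16 values of the share of UMIs in GMP-like barcodes moved by less than the standard deviation between libraries, with 63.8% to 68.0% for Prtn3. The highest value for Elane, 76.7%, lay just above its highest library, 76.6%. That for Mpo, 78.15%, lay just above 78.11%. Leaving out each library in turn moved no median level. Among the class ratios and the GMP-like day ratios, no difference past its threshold was reversed. Ratios between clusters, and day ratios inside a cluster, were not repeated under the alternatives.

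Among the median levels 198 values differed from the main value by no more than the standard deviation between libraries, and 42 differed by more. Some of these 42 still lie inside the range of the libraries. The cause was not tested unless named. With barcodes of high mitochondrial share left out, Ctsg in neutrophil precursor-like barcodes was 0.280. As a mean over barcodes, Mpo in GMP-like barcodes was 40.9, and in monocyte progenitor-like barcodes Elane was 5.90, Prtn3 6.48 and Ctsg 2.70. Thinned to 1000 UMIs, monocyte progenitor-like barcodes had 4.58 for Elane, 6.41 for Prtn3 and 2.97 for Ctsg. At resolution 1, Mpo was 34.2 and Prtn3 40.7 in GMP-like barcodes, Ctsg 1.40 in early progenitor-like, and Mpo 1.32, Elane 5.31, Prtn3 6.11 and Ctsg 2.79 in monocyte progenitor-like barcodes. With the members kept in clustering, the last 4 were 1.30, 4.24, 6.30 and 2.42.

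The following 4 settings were chosen after seeing the data. A second round at resolution 0.6 left 60.3% of GMP-like barcodes in their class and joined the Mif-led cluster to the early progenitors (597 barcodes), where Mpo was then 17.8, Elane 13.8, Prtn3 18.1 and Ctsg 10.8, while GMP-like barcodes had Mpo 45.6, Elane 115 and Prtn3 58.5. Early progenitor levels thus depend on where that border is drawn. Scaled over all libraries, Ctsg was 1.33 in early progenitor-like barcodes, Elane 8.04, Prtn3 4.57 and Ctsg 0.476 in neutrophil precursor-like, and Elane 4.77, Prtn3 6.17 and Ctsg 3.00 in monocyte progenitor-like barcodes. With immediate-early and histone genes left out of clustering, Mpo was 33.1 in GMP-like barcodes, and Mpo 8.66, Elane 2.96, Prtn3 7.26 and Ctsg 4.26 in early progenitor-like barcodes, and no barcode was named monocyte progenitor-like, so that class has no value. Without the cluster that leans to monocytes, the 437 monocyte progenitor-like barcodes left had Mpo 3.87, Elane 11.0, Prtn3 11.9 and Ctsg 5.67.

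Of the 16 day ratios in GMP-like barcodes, 1 passed 1.5-fold. The number was 2 with doublets left out, at resolution 1 and with immediate-early and histone genes left out of clustering, 3 for means over barcodes, and 0 when thinned and with the second round at resolution 0.6. With high mitochondrial shares left out, 12 of the 16 had a value. Near no change, Mpo on day 3 (log2 -0.34 to 0.06), Mpo on day 9 (-0.05 to 0.20) and Ctsg on day 12 (-0.08 to 0.25) fell on either side of day 0. In all, 105 day ratios stayed within their counting interval and 67 moved. With at least 20 summed counts in place of 50, more genes were tested, and 423 were higher by 1.5-fold on day 3, 436 on day 6 and 89 on day 12, against 267, 289 and 59.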

Other observations

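An unnamed cluster of 843 barcodes led by Cd14 and Thbs1 held Prtn3 at a median of 1.999 UMIs per 10000, Elane at 1.61, Ctsg at 1.04 and Mpo at 0.663. These sums rest on few barcodes. For each gene taken alone the median barcode held no UMI. The 10% with the most held 80.8% of the UMIs of Prtn3, 83.4% of Elane, 86.8% of Ctsg and 82.3% of Mpo. The cluster passed 10 monocyte markers, but its leading genes held a marker of another list (Il1b, late neutrophil) and none of the monocyte list, so by the naming rule it has no name and enters no comparison.

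Several limits hold for all values. Each day is 1 mouse, so a change between days cannot be told apart from a difference between mice or libraries, and the intervals cover counting error only. Days 0 and 12 also stood apart in immediate-early genes. Classes rest on marker genes, with no sorted cells to compare, and the border between the Mif-led cluster and the early progenitors moved with the settings. The transcripts say nothing of the proteins, which last longer. Levels near those of B- and T-like barcodes cannot be told apart from free RNA. The order of the clusters within a class follows their Elane level and was not measured as time.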
